A study of Mus musculus with 51 samples.

Results

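The genes for the fibrillar collagens of types I, III and V and for the lysyl oxidases that crosslink them were followed through mouse cells that lacked or carried extra HMGN proteins. The group was set by name, with earlier results of these data known. It holds 10 genes, Col1a1, Col1a2, Col3a1, Col5a1, Col5a2, Lox, Loxl1, Loxl2, Loxl3 and Loxl4. A gene was read from the probe sets that the platform annotation assigns to it alone, which gave 20 probe sets for 9 of the 10 genes, of 18193 genes named on the array. Loxl2 was the exception, because both of its probe sets are also assigned to Gm21451. The series holds 51 Affymetrix arrays of mouse RNA, 3 for each of 17 groups.

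SV40-transformed mouse embryonic fibroblasts (SV40 MEFs) carried a construct labelled as overexpression of HMGN1, HMGN2, HMGN3a, HMGN5 or HMGN5SE, an HMGN1 construct labelled N2swap or N3swap, or an empty vector. Primary MEFs of strain C57BL/6 were labelled HMGN1, HMGN3 or HMGN5 knock out, each with a wild-type (WT) group of its own. MIN6, a line of insulin-producing cells from a mouse insulinoma, carried HMGN1, HMGN3a or the empty vector. HMGN proteins attach to nucleosomes and loosen chromatin, and the series set out to measure what losing or adding a member does to transcription. The construct cells were retrovirally transduced pools, not clones, selected with puromycin for 7 days and grown 24 h without it, and the submitters describe the HMGN protein as doubled. The vector pools went through the same infection and selection. The labels repeat that protocol for the primary MEFs, and they explain neither SE nor which part was exchanged in the swaps. Ages of the embryos and the driving promoter of the constructs are not given in the sources used here, nor is it said whether the 3 arrays of a group came from separate cultures, so p-values measure the spread between arrays only.

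Fibrillar collagens are the rope-like proteins that give connective tissue its tensile strength. Type I is built from the chains of Col1a1 and Col1a2, type III from that of Col3a1, and type V, which is buried in the type I fibril and controls its diameter, from those of Col5a1 and Col5a2. Lox and its relatives oxidise lysines in collagen and elastin outside the cell, after which the chains crosslink. Fibroblasts are the main source of both, and both groups of genes are known targets of TGF-beta signalling.

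The 300 bases around the annotated transcription start are shown for 3 members whose level differed in unlike ways between the SV40 MEF pools described below, as a view of what their promoters hold. Each runs 5′ to 3′ on the strand of the gene, from 250 bases before the start to 50 bases from it. The sequences are those of GRCm38.p6 as given by RefSeq. Entries of 4 of the 10 members were read, and entries on a chromosome not shown here were left out of that search. Capitals mark exact matches, on either strand, to a motif searched for. The motifs were TATAAA, which is the box bound by the TATA-binding protein, then CCAAT as bound by nuclear factor Y, next GGGCGG as bound by Sp1, further CAGACA as bound by SMAD proteins, and last TGANTCA as bound by AP-1. No matches overlapped. Col3a1 lies at chr1:45311288-45311587 on the plus strand, Col1a2 at chr6:4505368-4505667 on the plus strand and Loxl4 at chr19:42612757-42613056 on the minus strand.
Col3a1: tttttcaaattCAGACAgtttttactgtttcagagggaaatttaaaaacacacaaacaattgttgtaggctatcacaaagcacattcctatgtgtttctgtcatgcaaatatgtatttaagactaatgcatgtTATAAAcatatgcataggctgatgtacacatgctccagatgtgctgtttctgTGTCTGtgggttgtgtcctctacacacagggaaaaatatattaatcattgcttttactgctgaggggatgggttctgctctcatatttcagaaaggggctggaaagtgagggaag
Col1a2: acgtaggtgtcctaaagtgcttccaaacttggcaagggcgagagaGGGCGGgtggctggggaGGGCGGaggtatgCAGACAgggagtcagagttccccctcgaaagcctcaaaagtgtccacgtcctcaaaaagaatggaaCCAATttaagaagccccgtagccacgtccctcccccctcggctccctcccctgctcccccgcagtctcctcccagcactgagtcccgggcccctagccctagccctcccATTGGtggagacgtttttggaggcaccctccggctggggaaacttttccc
Loxl4: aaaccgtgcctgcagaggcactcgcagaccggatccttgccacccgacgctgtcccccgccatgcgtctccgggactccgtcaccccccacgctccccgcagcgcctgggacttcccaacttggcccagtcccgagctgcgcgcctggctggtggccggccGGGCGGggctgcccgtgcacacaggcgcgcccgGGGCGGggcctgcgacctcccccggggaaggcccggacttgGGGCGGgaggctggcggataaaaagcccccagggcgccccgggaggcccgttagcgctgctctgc
The Col3a1 window had 37.7% G and C, with TATAAA at bases -117 to -112 (the start being base 1 and the base before it -1) and CAGACA at -239 to -234 and, on the opposite strand, at -65 to -60. The Col1a2 window had 61% G and C and held GGGCGG from -205 and from -188, CAGACA from -175, and CCAAT at -109 to -105 and, on the opposite strand, at 1 to 5. The Loxl4 window, at 75% G and C, held GGGCGG from -89, -56 and -15. The fourth window, that of Col5a1, also had 75% G and C and held GGGCGG at 2 places and CAGACA at 1. TGANTCA was in none of the 4 windows. Of 32851 promoters of the same length, 13.6% held TATAAA, 37.4% CCAAT, 35.7% GGGCGG, 21% CAGACA and 7.81% TGANTCA. A match is a run of letters, and no binding was measured.

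Levels are given as log2 of the deposited intensity and differences as log2 differences with their standard error, 3 arrays per group. A gene is called where limma's p-value, adjusted over all genes tested in the cell type, was below 0.05. The 3 cell types had median intensities of 5.47 to 5.93 (primary MEFs), 18.7 to 19.6 (SV40 MEFs) and 55.5 to 57.6 (MIN6 cells), and no level was compared between them. Probe sets of different genes bind with different strength, so no level was set against that of another gene. Dim probe sets were filtered at a log2 level of 1.99 for primary MEFs, 3.63 for SV40 MEFs and 5.14 for MIN6 cells, and a level below that was taken as a bound. Within groups, genes had a median standard deviation (SD) of 0.066 to 0.126. All 10 fibroblast markers read lay above the filter level in primary MEFs and 6 or 7 of 10 in the SV40 MEF groups, where Fap and Dpt lay below it in every group. In MIN6 cells 2 of 10 did, against 8 of 8 beta-cell markers that had probe sets of their own. Of the targeted genes, 3 of 4 Hmgn1 probe sets fell in the arrays labelled HMGN1 knock out (-0.89 to -0.67) and both Hmgn3 probe sets in those labelled HMGN3 knock out (-1.46 and -1.30), but the single Hmgn5 probe set was higher by 0.72 ± 0.12 in those labelled HMGN5 knock out. In SV40 MEFs that Hmgn5 probe set fell by 0.93 ± 0.09 in the pools labelled HMGN5, and the Hmgn1 probe sets moved by -0.08 to 0.02 in those labelled HMGN1. The Hmgn3 probe sets moved by -0.02 and -0.23 in the SV40 MEF pools labelled HMGN3a, neither called. In MIN6 cells Hmgn3 rose by 0.26 and 0.23 with HMGN3a, and Hmgn1 moved by -0.05 to -0.01 with HMGN1. Whether these probe sets lie within the deleted part or the construct is not known, so groups are named as labelled.

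In SV40 MEFs, 8 of the 9 measured genes were higher in the pools labelled HMGN5 and HMGN2 than in the vector pools. The ninth, Loxl4, was lower. This holds for the brightest probe set of each gene. The second probe sets of Col1a1 and Loxl4 were not called with HMGN2. With HMGN5 the second of Loxl1 and another of Col5a1 were not called. All 9 members were called in each of these comparisons, of which Lox passed the filter on dim probe sets only through the groups in which it is high and had to differ. The 8 others were all called too, where 41.5% of the 13461 genes tested were called with HMGN5 and 44.4% with HMGN2. The median change of all 9 measured, Lox included, was 1.75 with HMGN5, against -0.01 over all genes, and 1.02 with HMGN2, against -0.06 over all genes. The members were chosen with earlier results of these data known, so these shares and medians only describe them. The largest differences were those of Lox, Col3a1 and Col1a2. Both comparisons share the 3 vector arrays. In bulk RNA, fewer cells making a transcript and less of it per cell cannot be told apart.

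Col3a1, the chain of type III collagen, had log2 levels of 10.95, 10.82 and 10.78 in the HMGN5 arrays, 9.31, 9.88 and 9.88 in the HMGN2 arrays and 6.80, 6.55 and 6.73 in the vector arrays. No array of either construct came near the vector level, and the HMGN5 arrays lay above all HMGN2 arrays. The gene rose by 4.16 ± 0.12 with HMGN5 (17.8-fold, adjusted p = 1.26e-17) and by 2.99 ± 0.12 with HMGN2 (7.96-fold, adjusted p = 1.55e-14).

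Col1a2, the alpha-2 chain of type I collagen, had levels of 12.22, 12.23 and 12.14 with HMGN5, 11.53, 11.61 and 11.67 with HMGN2 and 9.54, 9.31 and 9.28 with the vector. The 3 groups did not overlap. It rose by 2.82 ± 0.08 with HMGN5 (7.07-fold, adjusted p = 7.88e-18) and by 2.22 ± 0.08 with HMGN2 (4.67-fold, adjusted p = 3.05e-15). Its partner chain Col1a1 had levels of 11.56, 11.63 and 11.56 with HMGN5, 11.11, 11.56 and 11.55 with HMGN2 and 9.88, 9.79 and 9.83 with the vector. Both constructs stood well above the vector, and the highest HMGN2 arrays came close to the HMGN5 arrays. The differences from the vector were 1.75 ± 0.12 (3.36-fold, adjusted p = 3.79e-11) and 1.57 ± 0.12 (2.98-fold, adjusted p = 4.69e-10). With HMGN2 the second Col1a1 probe set was not called.

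The type V chains moved less. Col5a1 read 9.30, 9.48 and 9.37 with HMGN5, 8.98, 9.41 and 9.48 with HMGN2 and 8.82, 8.80 and 8.80 with the vector, differences of 0.58 ± 0.09 (adjusted p = 1.27e-05) and 0.48 ± 0.09 (adjusted p = 0.000131). Col5a2 read 11.99, 12.07 and 12.06 with HMGN5, 11.62, 11.85 and 11.79 with HMGN2 and 11.39 on all 3 vector arrays, differences of 0.65 ± 0.06 (adjusted p = 9.62e-09) and 0.36 ± 0.06 (adjusted p = 4.97e-05). For both genes every array of either construct lay above every vector array.

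Lox, the founding lysyl oxidase, had levels of 9.20, 9.30 and 9.38 with HMGN5, 7.29, 7.84 and 7.93 with HMGN2 and 3.85, 3.46 and 3.50 with the vector. The vector mean of 3.60 lay below the filter level of 3.63. Lox therefore entered the test only through the groups in which it is high, and its differences are bounds of at least 5.59 with HMGN5 (48.1-fold) and at least 3.98 with HMGN2 (15.8-fold), given with no test. Loxl3, a lysyl oxidase needed in mice for palate and spine development, had levels of 7.65, 7.89 and 7.66 with HMGN5, 6.61, 6.72 and 6.79 with HMGN2 and 5.70, 5.67 and 5.70 with the vector. The groups were again in the order HMGN5, HMGN2, vector with no overlap. It rose by 2.04 ± 0.08 (4.13-fold, adjusted p = 4.88e-15) and by 1.02 ± 0.08 (2.02-fold, adjusted p = 2.05e-09).

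Loxl1, which acts on elastic fibres, rose with both constructs and stood higher with HMGN2 than with HMGN5. It read 9.79, 9.79 and 9.74 with HMGN5, 10.23, 10.31 and 10.35 with HMGN2 and 9.47, 9.56 and 9.43 with the vector. The difference from the vector was 0.29 ± 0.06 with HMGN5 (adjusted p = 0.000311, not called on its second probe set) and 0.81 ± 0.06 with HMGN2 (1.75-fold, adjusted p = 2.45e-10). Loxl4 ran the other way from the rest, at 7.14 on all 3 HMGN5 arrays, 7.17, 7.51 and 7.55 with HMGN2 and 7.81, 7.87 and 7.93 with the vector. It fell by 0.73 ± 0.08 with HMGN5 (adjusted p = 8.66e-08) and by 0.46 ± 0.08 with HMGN2 (adjusted p = 5.61e-05, not called on its second probe set). The first HMGN2 array was the lowest of its group for all 9 members, where it was the lowest for 32.5% of all genes tested. Without that array 9 members were still called.

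**Figure D1:**
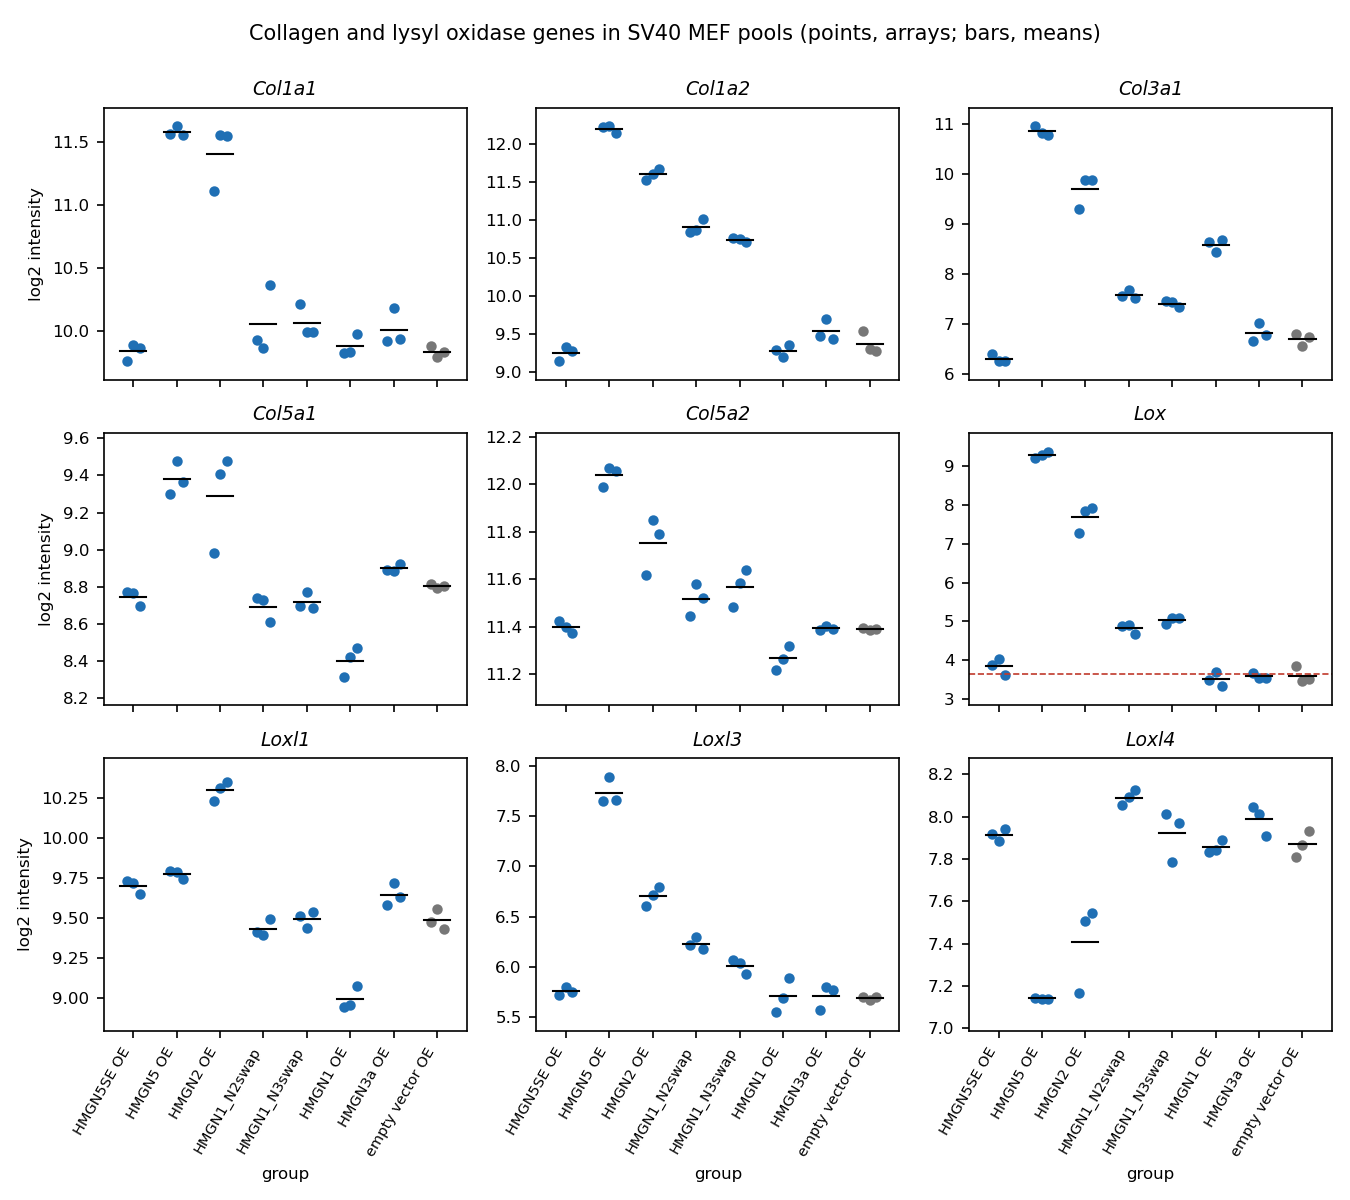
Log2 intensity of 9 fibrillar collagen and lysyl oxidase genes in the 8 groups of SV40 MEFs, 1 panel per gene with its own vertical scale. Points are arrays, bars are means of 3 arrays, and the red dashed line in the Lox panel is the filter level of 3.63. In 8 of the 9 panels the HMGN5 and HMGN2 points lie above the vector points, and in the Loxl4 panel they lie below.

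The HMGN1 pools differed from the vector pools in 3 of 9 members, where 29.4% of all genes were called (median change -0.09 for the members). Col3a1 rose by 1.89 ± 0.12 (3.7-fold, adjusted p = 7.65e-11), with levels of 8.63, 8.43 and 8.67 against 6.80, 6.55 and 6.73. Loxl1 fell by 0.49 ± 0.06 (adjusted p = 1.54e-06), to 8.95, 8.96 and 9.08 against 9.47, 9.56 and 9.43 with the vector. Col5a1 fell by 0.40 ± 0.09 (adjusted p = 0.00145), to 8.31, 8.42 and 8.47 against 8.82, 8.80 and 8.80. Col3a1 was the member called higher here. Col1a2 differed by -0.10 with a 95% interval of -0.26 to 0.07 on its brightest probe set and by -0.30 ± 0.09 on 1423110_at, which was called (adjusted p = 0.0163 over all probe sets). Lox lay below the filter level in both groups, so that no fold can be given. The brightest probe set of Col1a2 read 9.29, 9.20 and 9.35 in the HMGN1 arrays and overlapped with the vector arrays.

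The HMGN1 constructs labelled as swaps gave another pattern. Each had 5 of 9 members called, all higher than the vector, where 37.1% of genes were called with N2swap and 37.4% with N3swap. Both counts include Lox, which lay below the filter level with the vector and is given as a bound with no test. Median member changes were 0.22 and 0.23, against -0.01 and 0.01 over all genes. Col1a2 led, with levels of 10.84, 10.86 and 11.02 in N2swap arrays, 10.77, 10.75 and 10.71 in N3swap arrays and 9.54, 9.31 and 9.28 in vector arrays. It rose by 1.53 ± 0.08 with N2swap (adjusted p = 3.15e-12) and by 1.36 ± 0.08 with N3swap (adjusted p = 2.43e-11). Lox read 4.89, 4.90 and 4.69 with N2swap and 4.94, 5.08 and 5.10 with N3swap, against 3.85, 3.46 and 3.50 with the vector, which makes it higher by at least 1.12 and 1.33, again with no test. On its second probe set, given further below, the differences were smaller.

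Col3a1 rose by 0.89 ± 0.12 with N2swap and by 0.71 ± 0.12 with N3swap, and Loxl3 by 0.54 ± 0.08 and 0.32 ± 0.08. The second Col3a1 probe set, given further below, rose with neither swap. The fifth call was Loxl4 with N2swap (0.22 ± 0.08, adjusted p = 0.0314) and Col5a2 with N3swap (0.18 ± 0.06, adjusted p = 0.0238). Neither of these last 2 calls held when the fit was limited to the compared groups (adjusted p = 0.0619 for Loxl4 and 0.093 for Col5a2). Loxl4 also lost its call without replicate 1 or 2 of the vector or replicate 2 or 3 of N2swap (0.19 to 0.22), and Col5a2 without any 1 of the vector arrays or replicate 2 or 3 of N3swap (0.14 to 0.18). The brightest Col1a1 probe set was not called with either swap, with levels of 9.92, 9.86 and 10.36 in N2swap arrays and 10.21, 9.99 and 9.99 in N3swap arrays, against 9.88, 9.79 and 9.83 in vector arrays. Its second probe set, 1455494_at, was called higher with both, by 0.39 ± 0.13 (adjusted p = 0.0253) with N2swap and 0.45 ± 0.13 (adjusted p = 0.0119) with N3swap.

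A measure of RNA quality moved with the swaps. The difference between 3′ and 5′ Actb probe sets, which grows as RNA is shorter, was 0.39 to 0.79 in the swap arrays and 0.01 to 0.39 in the other SV40 MEF arrays. With that measure as a covariate Col1a1 was called higher with both swaps (0.63 with N2swap and 0.61 with N3swap), and 2 members lost their call with N3swap, Loxl3 (0.31, adjusted p = 0.0538) and Col5a2 (adjusted p = 0.104). The Xist level also stood apart, at 6.88 to 7.78 in the swap arrays and 6.16 to 6.55 in the HMGN2 arrays, against 4.08 to 4.91 in all others. The part of either in the collagen results was not tested further.

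With HMGN3a and with HMGN5SE no member was called, of 9 tested, where 0.0297% and 0.0149% of genes were (4 and 2 genes of 13461). At an unadjusted p below 0.05, 2 members passed in each, Loxl1 and Col1a2 with HMGN3a and Loxl1 and Col3a1 with HMGN5SE, where 1468 and 704 of all genes passed. All differences from the vector lay between -0.01 and 0.18 for HMGN3a. For HMGN5SE the lowest was Col3a1 at -0.39 (95% interval -0.64 to -0.14, adjusted p = 0.666), with levels of 6.40, 6.26 and 6.25 against 6.80, 6.55 and 6.73 in the vector arrays. The groups did not overlap for that gene. The median change of the members was 0.12 with HMGN3a and 0.01 with HMGN5SE.

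**Figure D2:**
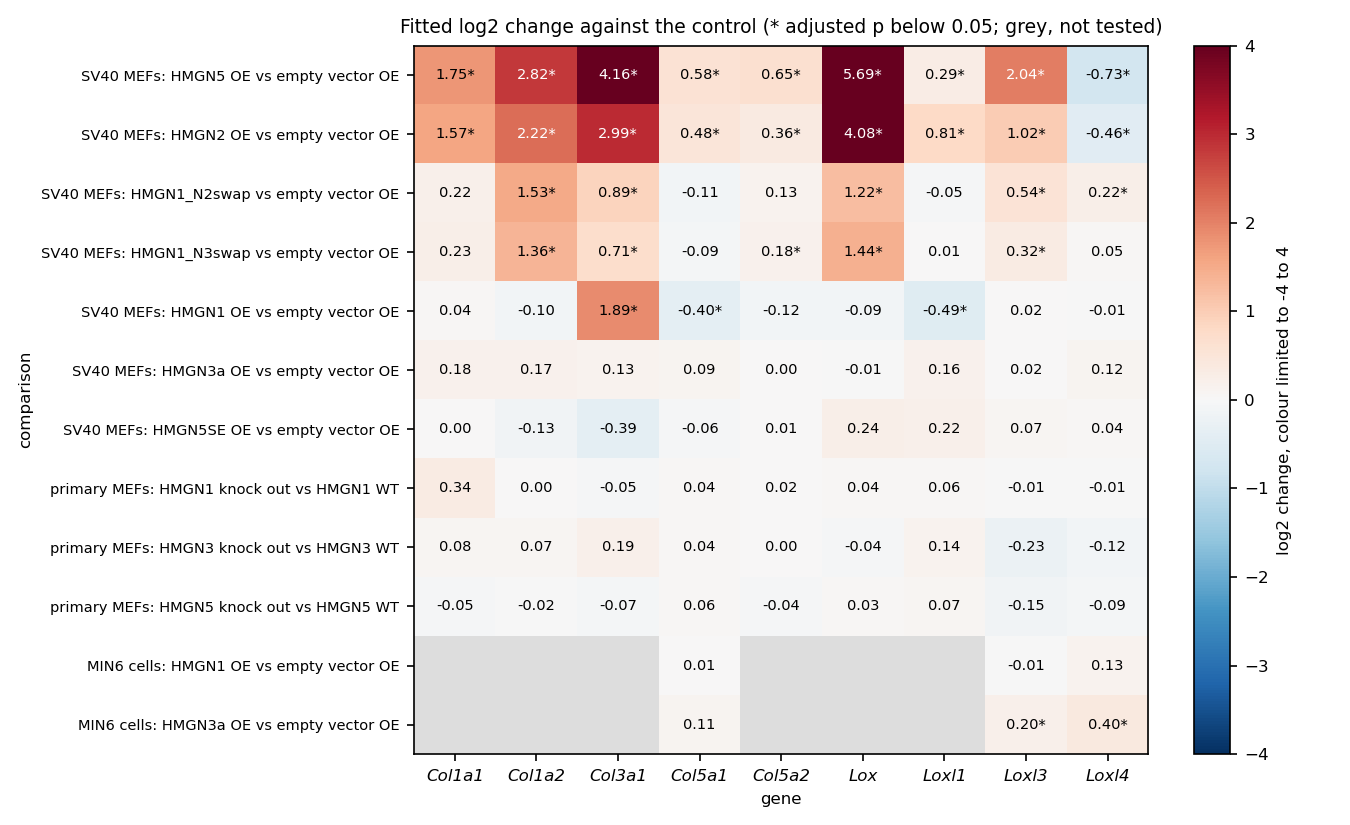
Fitted log2 change of the 9 measured genes (columns) in the 12 comparisons with a control (rows), coloured up to 4 in either direction, with an asterisk at an adjusted p below 0.05 and grey where a gene was not tested. Lox in SV40 MEFs is drawn as fitted although its vector mean lies below the filter level; the HMGN5 and HMGN2 rows hold the largest values, with Col3a1 at 4.16 and 2.99, and the 3 knock out rows stay between -0.23 and 0.34.

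Direct contrasts between constructs set the pools against each other without the vector arrays. HMGN2 differed from HMGN1 in 9 of 9 members, 8 higher and 1 lower, where 41.1% of genes were called. That count includes Lox, which lay below the filter level with HMGN1 and is given as a bound with no test. Lox was higher by at least 4.03, Col1a2 by 2.32 ± 0.08, Col1a1 by 1.53 ± 0.12, Loxl1 by 1.30 ± 0.06 and Col3a1 by 1.11 ± 0.12. Loxl3, Col5a1 and Col5a2 followed with 1.00, 0.89 and 0.48, and Loxl4 fell by 0.45. The median over members was 1.11, against -0.06 over all genes.

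HMGN5 differed from HMGN2 in 7 of 9 members, where 49.3% of genes were called. Both Lox means, 9.29 with HMGN5 and 7.69 with HMGN2, lay above the filter level. Higher with HMGN5 were Lox (1.61 ± 0.14, adjusted p = 2.63e-09), Col3a1 (1.16 ± 0.12), Loxl3 (1.03 ± 0.08), Col1a2 (0.60 ± 0.08) and Col5a2 (0.29 ± 0.06). Lower were Loxl1 (-0.52 ± 0.06, adjusted p = 1.28e-07) and Loxl4 (-0.26 ± 0.08, adjusted p = 0.0076) and the Loxl4 difference was not called without replicate 3 of HMGN2 (-0.19, adjusted p = 0.0629). Col1a1 differed by 0.18 with a 95% interval of -0.07 to 0.42 and Col5a1 by 0.09 with an interval of -0.09 to 0.28, so on their brightest probe sets neither could be told from 0. Other probe sets of these genes did differ: Col1a1 was higher by 0.87 ± 0.13 on 1455494_at, and Col5a1 was lower on 1416741_at (-1.15 ± 0.13) and 1434479_at (-0.69 ± 0.08). With each array's Actb 3′-minus-5′ probe set difference, a sign of RNA quality, as a covariate the brightest Col1a1 probe set was called too (0.31, adjusted p = 0.00554). The second probe sets of Col3a1 (0.34 ± 0.16, adjusted p = 0.0976) and Col5a2 (-0.07 ± 0.08, adjusted p = 0.494) were not called between HMGN5 and HMGN2, so these differences rest on 1 probe set each.

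HMGN5SE and HMGN5 share a name in the labels and lay far apart. Of 9 members 8 were called, 7 of them lower with HMGN5SE, where 42% of genes were called. These include Lox, whose HMGN5SE mean of 3.84 lay near the filter level of 3.63. Lox differed by -5.46 ± 0.14, at 3.86, 4.04 and 3.62 in the HMGN5SE arrays against 9.20, 9.30 and 9.38 in the HMGN5 arrays. The differences were -4.55 ± 0.12 for Col3a1, -2.95 ± 0.08 for Col1a2, -1.98 ± 0.08 for Loxl3 and -1.75 ± 0.12 for Col1a1. Col5a1 and Col5a2 each fell by 0.64, and Loxl4 was higher by 0.77 ± 0.08. Loxl1 was the member not called (-0.07).

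Against HMGN1, whose name they carry, the swaps changed 8 members (N2swap) and 7 members (N3swap) of 9, where 46.1% and 50.9% of genes were called. Lox is in both counts, although it lay below the filter level with HMGN1 and is given as a bound with no test. Col1a2 was higher by 1.63 ± 0.08 with N2swap and by 1.46 ± 0.08 with N3swap, and Lox by at least 1.17 and 1.38. Loxl1 was higher by 0.44 and 0.50, Col5a1 by 0.29 and 0.32, Col5a2 by 0.25 and 0.30 and Loxl3 by 0.52 and 0.30. Col3a1 ran the other way, lower than with HMGN1 by -0.99 ± 0.12 (adjusted p = 7.67e-07) and -1.18 ± 0.12 (adjusted p = 6.56e-08). Loxl4 was called with N2swap alone (0.23, and 0.07 with N3swap), which is no test of a difference between the swaps. That call and that of Col5a1 with N2swap were lost without replicate 1 of HMGN1 (adjusted p = 0.0531 and 0.0508), and that of Loxl4 also without replicate 3 of N2swap (adjusted p = 0.0513). The brightest Col1a1 probe set was not called (0.17 and 0.19), but 1455494_at was called higher (0.42 ± 0.13 and 0.48 ± 0.13). With that Actb difference as a covariate the brightest was called at 0.56 (N2swap, adjusted p = 0.000753) and 0.54 (N3swap, adjusted p = 0.000653), and Col5a1 with N2swap lost its call (adjusted p = 0.0886).

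Ordered by level on the brightest probe set of each gene, the pools fell into steps that differed between members. For Lox the means were 3.51 with HMGN1, 3.59 with HMGN3a, 3.60 with the vector and 3.84 with HMGN5SE, which overlapped as neighbours, then 4.82 with N2swap, 5.04 with N3swap, 7.69 with HMGN2 and 9.29 with HMGN5, each apart from the next. For Col1a2 the lowest 4 were the same groups at 9.25 to 9.54 with overlap, followed by N3swap at 10.74, N2swap at 10.91, HMGN2 at 11.60 and HMGN5 at 12.20 without overlap. For Col3a1 HMGN1 moved up the order, above both swaps, with HMGN5SE at 6.30, the vector at 6.69, HMGN3a at 6.82, N3swap at 7.40, N2swap at 7.59, HMGN1 at 8.58, HMGN2 at 9.69 and HMGN5 at 10.85, and only the vector and HMGN3a overlapped as neighbours.

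Col1a1 had 6 groups between 9.83 and 10.06 that overlapped from neighbour to neighbour, and then HMGN2 at 11.41 and HMGN5 at 11.58, which did not overlap by a margin smaller than the last digit given. For Loxl3 the vector, HMGN1, HMGN3a and HMGN5SE lay at 5.69 to 5.76, below N3swap at 6.01, N2swap at 6.23, HMGN2 at 6.71 and HMGN5 at 7.73. Col5a1 and Col5a2 were lowest with HMGN1 (8.40 and 11.27), apart from all other groups. The top 2 groups of Col5a1, HMGN2 and HMGN5, overlapped, and for Col5a2 HMGN2 overlapped with N3swap. Loxl1 was lowest with HMGN1 and highest with HMGN5 (9.78) and HMGN2 (10.30), each apart from its neighbours, and Loxl4 from HMGN5 at 7.14 and HMGN2 at 7.41, apart from each other and from the rest, to N2swap at 8.09.

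Several members have more than 1 probe set, and these did not always move alike. The second Col1a1 probe set, 1455494_at, read 7.57, 7.56 and 7.87 with HMGN2 against 7.71, 7.79 and 8.01 with the vector, a difference of -0.17 ± 0.13 (adjusted p = 0.307 over all probe sets), where the brighter one gave 1.57. With HMGN5 both rose, the second by 0.69 ± 0.13. The higher Col1a1 with HMGN2 therefore rests on 1 of its probe sets. For Col5a1 the other probe sets 1416741_at and 1434479_at were higher by 1.38 ± 0.13 and 0.94 ± 0.08 with HMGN2, more than the brightest (0.48), and by 0.24 ± 0.13 (adjusted p = 0.168) and 0.25 ± 0.08 with HMGN5, less than the brightest (0.58).

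The second Loxl1 probe set, 1436063_at, was higher by 0.76 ± 0.13 with HMGN2 but differed by 0.18 ± 0.13 with HMGN5 (adjusted p = 0.339). Loxl4 fell with HMGN5 on both probe sets (by 0.62 ± 0.19 on 1450134_at), but with HMGN2 that probe set moved by 0.01 ± 0.19 (adjusted p = 0.959). Of the 3 Col1a2 probe sets, 1446326_at was higher by 2.82 ± 0.15 with HMGN5 and by 0.65 ± 0.15 with HMGN2. Lox was read again by 1448228_at, which was higher by 5.16 with HMGN5 and by 4.02 with HMGN2. On that probe set the swaps gave 0.11 (N2swap, not called) and 0.42 (N3swap, called), so Lox in the swaps depends on the probe set read. The third Lox probe set, 1437903_at, lay below the filter level in all 8 groups. The second Col3a1 probe set, 1427884_at, was higher by 1.12 with HMGN1 and moved by -0.03 and -0.04 with the swaps. The higher Col3a1 with the swaps therefore rests on its brightest probe set. The second Col5a2 probe set, 1450625_at, was higher by 0.89 with HMGN5, 0.96 with HMGN2, 0.84 with N2swap and 0.86 with N3swap, so that Col5a2 in the swaps depends on the probe set read. Whether the probe sets of a gene read different transcript ends was not tested.

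**Figure D3:**
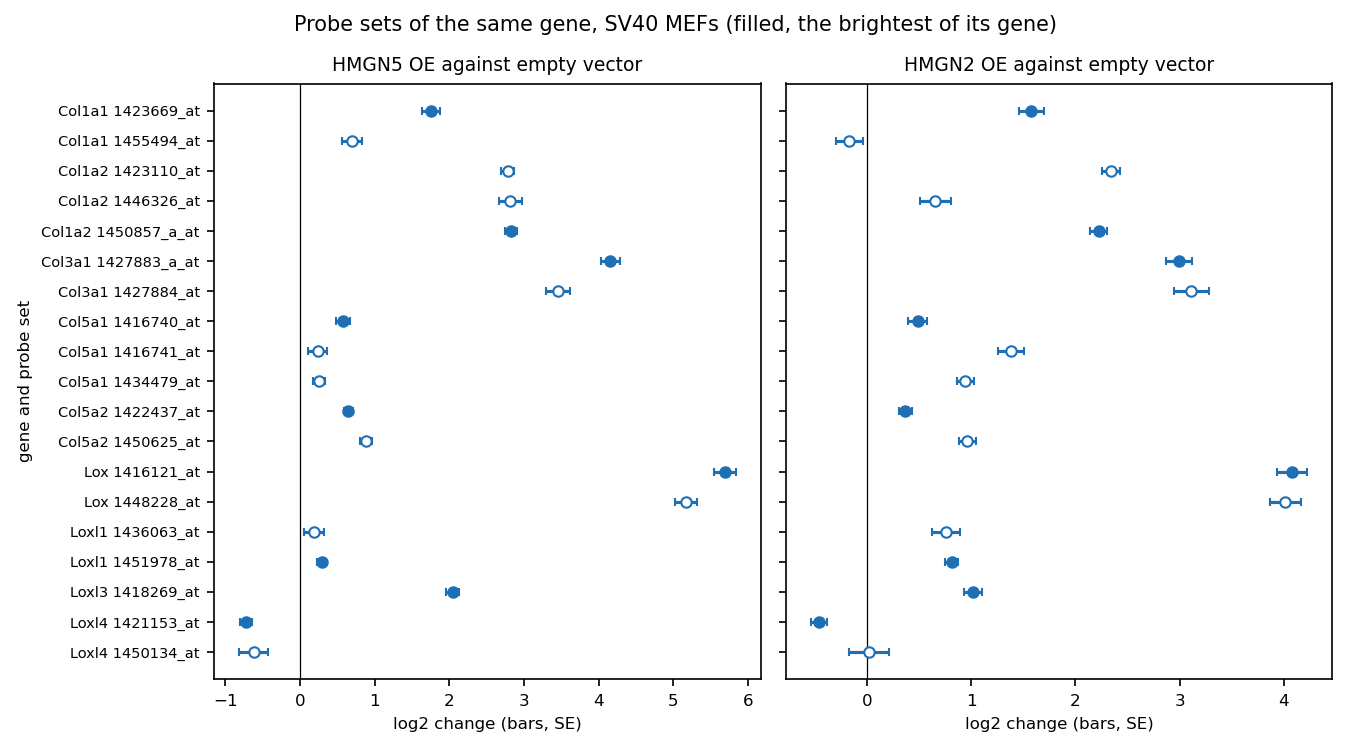
Log2 change from the vector in SV40 MEFs for each probe set of the members above the filter, with HMGN5 (left) and HMGN2 (right); bars are standard errors, filled points are the brightest probe set of a gene, and the panels have different scales. The 2 probe sets of Col1a1 part with HMGN2 (1.57 and -0.17), and those of Lox are both high with HMGN5 and with HMGN2.

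Other genes of the same pathway were read from lists by role. Of 16 fibril-associated genes tested (20 listed), 12 were higher and 0 lower with HMGN5 (median 0.85), and 11 were higher and 1 lower with HMGN2 (median 0.45), against the shares of 41.5% and 44.4% over all genes. With HMGN5 the type VI collagen chains Col6a2 and Col6a3 rose by 2.86 ± 0.09 and 1.77 ± 0.10, and the matricellular genes Postn and Thbs2 were higher by at least 1.99 and 1.56. With HMGN2 the small proteoglycan Ogn rose by 2.46 ± 0.11, the matricellular Tnc by 1.99 ± 0.07, Postn by at least 1.28 and Thbs2 by at least 0.29. Postn and Thbs2 passed the filter only through groups in which they are high and had to differ. They are among the genes counted as higher, so the counts and medians of this list are in part given by the filter. Tnxb was the gene of the list that fell with HMGN2. Decorin (Dcn), which binds collagen fibrils, was not called in either.

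Of 11 elastic-fibre genes tested (16 listed), 5 were higher and 2 lower with HMGN5 (median 0.08), and 6 were higher and 0 lower with HMGN2 (median 0.29). Over all genes 41.5% were called with HMGN5 and 44.4% with HMGN2. Fbln2, a fibulin of elastic fibres and basement membranes, rose by 6.00 ± 0.11 with HMGN5 (adjusted p = 1.1e-20) and by 1.88 ± 0.11 with HMGN2. Fbln5, which helps tether Loxl1 to elastin, rose by 3.44 ± 0.18 and 3.04 ± 0.18, and Emilin1 by 2.42 ± 0.15 and 1.27 ± 0.15. Fbln2 also rose with both swaps, by 2.26 ± 0.11 and 2.50 ± 0.11, and fell by 0.72 ± 0.11 with HMGN1.

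Of 19 genes for collagen folding and hydroxylation tested (20 listed), 9 were higher and 0 lower with HMGN5 (median 0.16), and 10 were higher and 2 lower with HMGN2 (median 0.25). The HMGN5 count was near the share of 41.5% over all genes, which was 44.4% with HMGN2. P3h4, a partner of the enzymes that hydroxylate collagen lysines, rose by 2.59 ± 0.07 with HMGN5, 0.76 ± 0.07 with HMGN2, 1.27 ± 0.07 with N2swap and 1.05 ± 0.07 with N3swap. The prolyl 4-hydroxylase subunit P4ha1 rose by 0.61 ± 0.09 with HMGN5, 0.99 ± 0.09 with HMGN2 and 0.53 with HMGN1. Plod2, which makes the hydroxylysines used in stable crosslinks, rose by 0.92 ± 0.11 with HMGN2 and 0.57 with HMGN1 and was not called with HMGN5.

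Procollagen processing had 3 genes tested of 8 listed, and the uptake receptor list 5 of 10. Pcolce2, an enhancer of procollagen cleavage, rose by 0.91 ± 0.11 with HMGN5 and fell by 0.53 ± 0.11 with HMGN2, while the protease Bmp1 fell by 0.41 ± 0.09 with HMGN5. Mrc2, the receptor that takes up collagen, rose by 1.33 ± 0.07 with HMGN5 and 1.11 ± 0.07 with HMGN2. Of 5 other fibrillar collagens tested (6 listed), HMGN5 had 1 higher and 2 lower and HMGN2 had 2 higher and 1 lower. The shares over all genes were 41.5% and 44.4%. Col5a3, the third type V chain, fell by 0.60 ± 0.15 with HMGN5 and rose by 0.77 ± 0.15 with HMGN2.

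Of 14 TGF-beta signalling genes tested (15 listed), 8 were higher and 2 lower with HMGN5 (median 0.35), and 10 were higher and 1 lower with HMGN2 (median 0.38). Among all genes 41.5% were called with HMGN5 and 44.4% with HMGN2. Ccn2, a secreted TGF-beta target, rose by 1.54 ± 0.09 with HMGN5 and 1.02 ± 0.09 with HMGN2 and fell by 0.95 ± 0.09 with HMGN1. Tgfbi, another target, fell by 1.31 ± 0.14 with HMGN5 and rose by 0.89 ± 0.14 with HMGN2. The receptor Tgfbr2 rose by 0.66 ± 0.06 and 0.83 ± 0.06. The ligand Tgfb2 rose by 1.52 ± 0.13 with HMGN5 and fell by 0.77 ± 0.13 with HMGN1.

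With HMGN1, where 29.4% of all genes were called, the lists had calls in both directions. Of 19 folding and hydroxylation genes 4 were higher and 5 lower, of 16 fibril-associated genes 2 and 2, of 11 elastic-fibre genes 0 and 2 and of 14 TGF-beta genes 2 and 3. Fibronectin (Fn1), of the fibril-associated list, fell by 0.59 ± 0.07. The N2swap pools had 6 of 16 fibril-associated genes higher and 0 lower, a share near the 37.1% over all genes, and 5 of 11 elastic-fibre genes higher and 1 lower. The N3swap pools had 5 and 2 of 16, and 4 and 1 of 11, where 37.4% of all genes were called. Tnc rose by 0.67 with N2swap and 0.77 with N3swap. HMGN3a and HMGN5SE had 0 calls in all 7 lists, where limma called 4 and 2 genes of all tested.

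**Figure D4:**
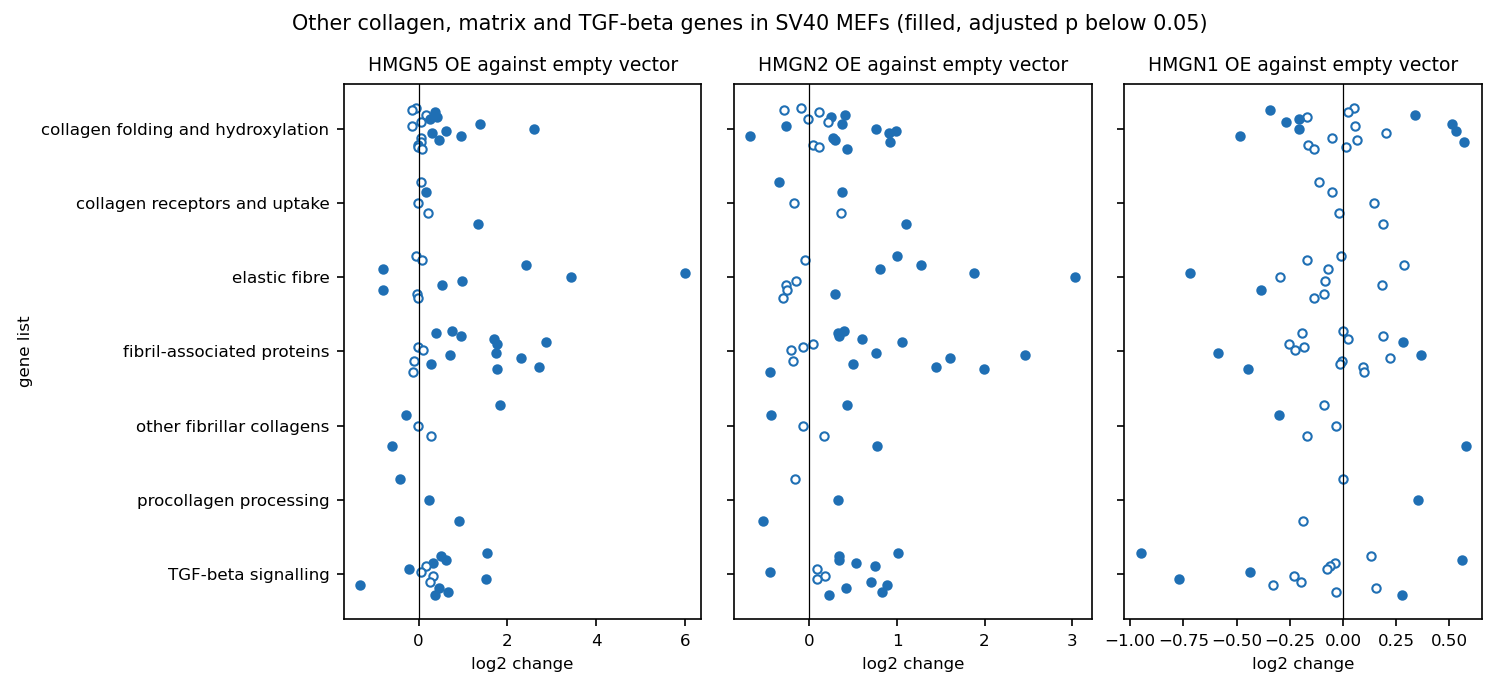
Log2 change from the vector for the genes of 7 pathway lists in SV40 MEFs with HMGN5, HMGN2 and HMGN1, where each point is a gene, filled at an adjusted p below 0.05, and each panel has its own scale. The fibril-associated list has 12 filled points to the right of 0 with HMGN5 and 11 with HMGN2, and the farthest point is Fbln2 at 6.00 with HMGN5. These include Postn and Thbs2, which passed the filter only through groups in which they are high.

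As a sum, in which the brightest weigh most, markers of smooth muscle were highest in the HMGN5 and HMGN2 pools, but not every marker rose there. The summed intensity of 6 smooth-muscle markers was 3860.3 to 3999 in the HMGN5 arrays, 2550.0 to 2868 with HMGN2, 1087 to 1308 with N2swap, 1226 to 1339 with N3swap and 365 to 387 with HMGN1, against 602 to 647 with the vector. Acta2, the smooth-muscle actin among them, differed by 3.57 ± 0.10 with HMGN5, 2.75 ± 0.10 with HMGN2, 1.55 ± 0.10 and 1.66 ± 0.10 with the swaps and -0.76 ± 0.10 with HMGN1. Myh11, which defines mature smooth muscle, lay below the filter level in all 8 groups, and Cnn1 in those of HMGN1, HMGN2, HMGN3a and HMGN5. With the vector, HMGN5SE and both swaps Cnn1 lay above it. Summed fibroblast markers were 16608 to 16807 with HMGN5 and 15176 to 15905 with HMGN2, against 12632 to 12894 with the vector. Of these, Thy1 lay below the filter level with HMGN5 and above it with the vector, and Pdgfra the reverse. Of 8 leukocyte markers, 4 or 5 lay above the filter level in each SV40 MEF group, while Ptprc and Adgre1 lay below it in every group. The part of these cell states in the collagen results was not tested.

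Across the 24 SV40 MEF arrays, which share 8 groups, the genes most like each member in level were read as a description. Lox was most like Has2, which makes hyaluronan (Pearson r = 0.985), and Fbln5 (0.978), and Col1a2 was most like Acta2 (0.979) and Cdkn2b (0.973). Col1a1 was most like Mrc2 (0.974) and Creb3l1 (0.972), Col3a1 like Eva1b (0.966) and Insig1 (0.951), Col5a1 like Rcn3 (0.935) and Fstl1 (0.927) and Col5a2 like Tspan6 (0.968) and Cald1 (0.964). Among lysyl oxidases, Loxl1 was most like Rhob (0.951) and Septin11 (0.931), Loxl3 like the growth factor gene Fgf7 (0.978) and Cmtm3 (0.976), and Loxl4 like Cactin (0.926) and Eml5 (0.924). Between members, Lox ran with Loxl3 (0.965), Col5a2 (0.963) and Col1a1 (0.955). Col3a1 and Loxl1 had the lowest value among pairs without Loxl4 (0.336), and Loxl4 had r of -0.527 to -0.871 with the other members.

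In primary MEFs the knock outs addressed the reverse question, whether losing an HMGN protein changes these genes. None of the 9 members was called in any of the 3 comparisons, where 0.439% of 13669 genes were called with the HMGN1 knock out, 0.585% with HMGN3 and 0.0732% with HMGN5. The 27 differences lay between -0.23 and 0.34, and their 95% intervals between -0.40 and 0.63. At an unadjusted p below 0.05, 3 of the 27 passed, Col1a1 with the HMGN1 knock out and Loxl1 and Loxl3 with the HMGN3 knock out. Over all genes 2121, 1159 and 764 passed that level. Median member changes were 0.02, 0.04 and -0.04.

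Col1a1 read 11.54, 10.84 and 10.89 in the HMGN1 knock out arrays against 10.83, 10.61 and 10.82 in HMGN1 WT (0.34 ± 0.14, 95% interval 0.05 to 0.63, adjusted p = 0.248). The first knock out array stood apart from the others of its group, which lay just above the WT arrays. That array also differed in sex-linked genes, with Xist at 3.14 against 8.56 to 8.63 in HMGN1 WT and the Y-linked Eif2s3y at 5.85 against 1.31 to 1.41, while the third knock out array had Xist at 7.40 and Eif2s3y at 5.23. The Col1a1 difference was 0.11 without it and 0.21 with the Y-linked covariate. Loxl3 read 8.67, 8.54 and 8.59 in the HMGN3 knock out arrays against 8.79, 8.86 and 8.82 in HMGN3 WT (-0.23 ± 0.08, 95% interval -0.40 to -0.06, adjusted p = 0.363), without overlap. The genes that differed most between the SV40 MEF pools were close here. Lox read 11.20, 10.97 and 11.13 in the HMGN1 knock out against 11.05, 11.07 and 11.07 in its WT group, 11.31, 11.20 and 11.23 against 11.28, 11.27 and 11.30 for HMGN3, and 11.15, 11.52 and 11.44 against 11.20, 11.44 and 11.37 for HMGN5.

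Col1a2 stayed between 12.52 and 12.78 on all 18 arrays. Col3a1 read 11.52, 11.49 and 11.56 in the HMGN1 knock out against 11.66, 11.50 and 11.59 in HMGN1 WT, and 11.60, 12.19 and 11.95 in the HMGN5 knock out against 11.80, 12.16 and 11.98 in HMGN5 WT. The HMGN3 knock out arrays read 11.91, 11.78 and 11.89 against 11.71, 11.64 and 11.65 in HMGN3 WT, a difference of 0.19 that was not called although the groups did not overlap. The remaining members spanned narrow ranges over the 18 arrays, 9.58 to 9.98 for Loxl1, 4.88 to 5.31 for Loxl4, 10.90 to 11.22 for Col5a1 and 11.92 to 12.11 for Col5a2. Of the other lists, 1 gene was called in each of 2 knock outs, the collagen-binding integrin Itga1 with HMGN3 (0.43 ± 0.08, adjusted p = 0.0226) and the receptor Tgfbr1 with HMGN5 (-0.37 ± 0.06, adjusted p = 0.0235).

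**Figure D5:**
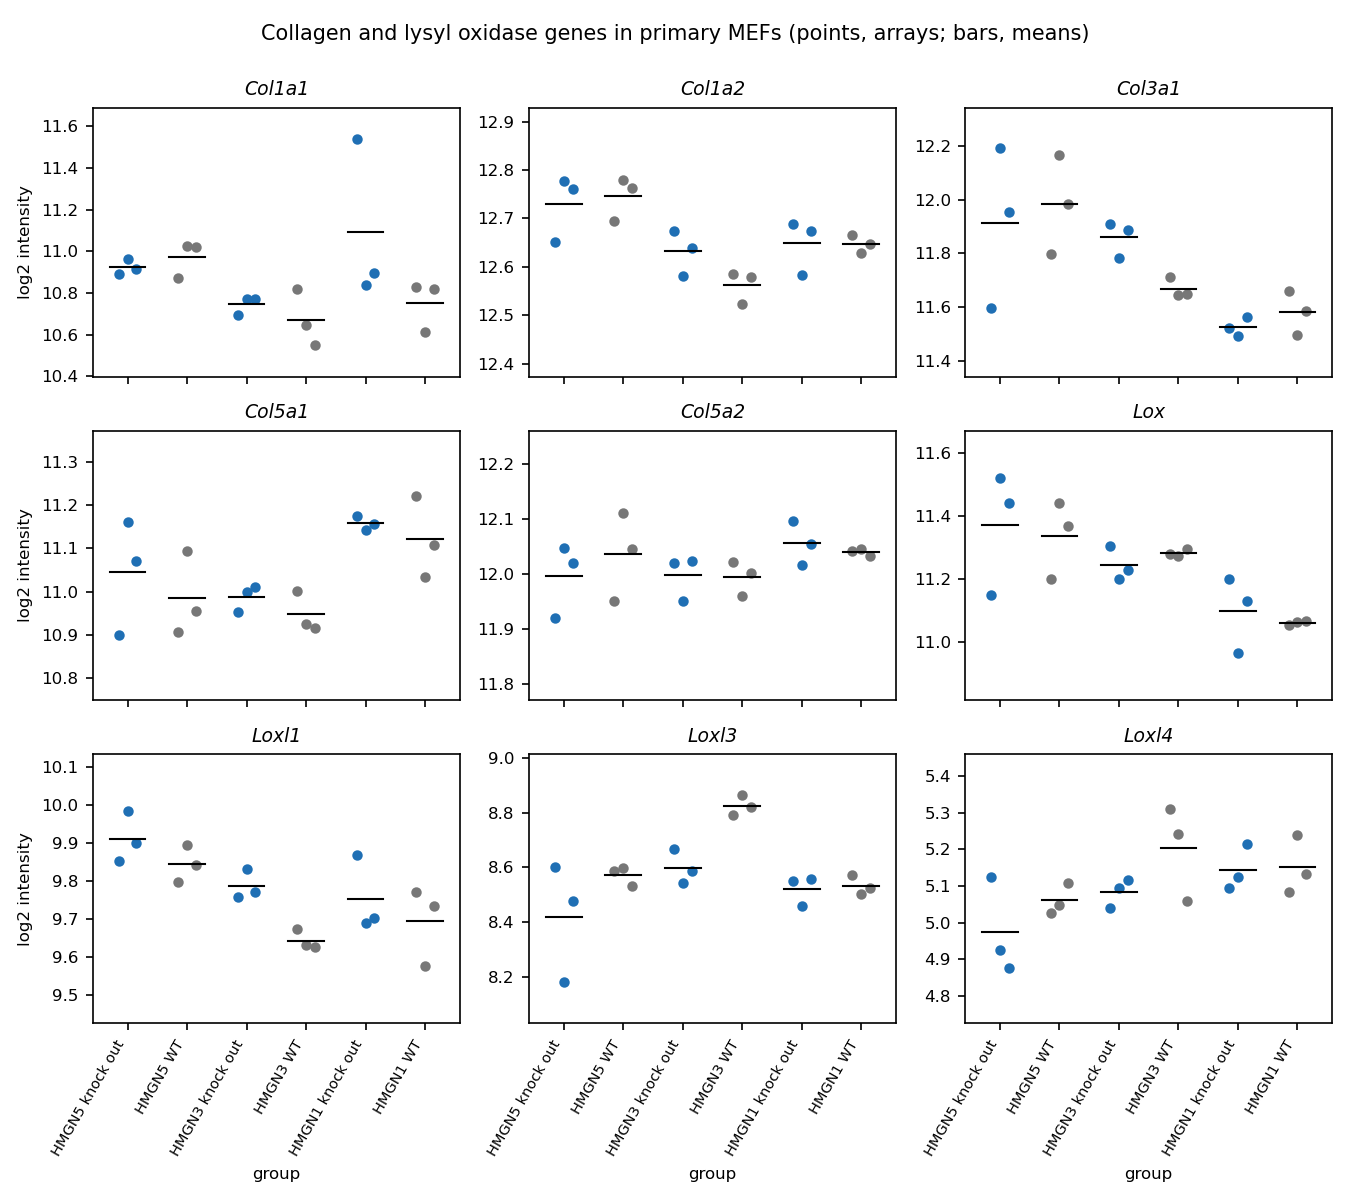
Log2 intensity of the 9 measured genes in the 6 groups of primary MEFs, 1 panel per gene with its own narrow scale (blue points, knock out arrays; grey points, WT arrays; bars, means of 3 arrays). Knock out and WT points of a pair lie close together, and the widest gap within a group is that of the first HMGN1 knock out array for Col1a1, at 11.54.

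The 3 WT groups were also set against each other, as a measure of how far cultures without a knock out differ. HMGN3 WT differed from HMGN1 WT in 1 of 9 members, where 31.5% of genes were called, with Loxl3 higher by 0.29 ± 0.08 (adjusted p = 0.0111). Without replicate 2 of HMGN1 WT, Col5a1 was called as well (-0.22). HMGN5 WT differed from HMGN1 WT in 1 member, where 11.7% of genes were called, with Col3a1 higher by 0.40 ± 0.12 (adjusted p = 0.0334). That call was lost without replicate 2 or 3 of either group (0.31 to 0.40, adjusted p = 0.0907 to 0.15), and without replicate 1 of HMGN5 WT Lox was called too (0.34). HMGN5 WT differed from HMGN3 WT in 3 members, where 17.2% of genes were called, Col1a2 (0.18 ± 0.05, adjusted p = 0.0212), Loxl1 (0.20 ± 0.06, adjusted p = 0.0375) and Loxl3 (-0.25 ± 0.08, adjusted p = 0.039).

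The other probe sets of a gene gave further calls between HMGN5 WT and HMGN3 WT, Col3a1 1427884_at (0.94 ± 0.22, adjusted p = 0.0081), Col5a2 1450625_at (0.60 ± 0.14, adjusted p = 0.00805), Col1a1 1455494_at (0.40 ± 0.09, adjusted p = 0.00544) and Col1a2 1423110_at (0.29 ± 0.09). Between HMGN5 WT and HMGN1 WT, Col5a2 1450625_at (0.48 ± 0.14) and Lox 1437903_at (0.36 ± 0.09) were called, and between HMGN3 WT and HMGN1 WT Lox 1437903_at (0.27 ± 0.09).

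Between HMGN5 WT and HMGN3 WT none of the 3 members called on their brightest probe set was called without replicate 2 of HMGN3 WT or without replicate 2 or 3 of HMGN5 WT, and Col1a2 alone was called without replicate 1 or 3 of HMGN3 WT. Without replicate 1 of HMGN5 WT, Loxl3 lost its call and Col3a1 gained one (0.41). Sex-linked genes differed between the cultures, with Xist at 2.40 to 2.78 in HMGN3 WT and HMGN5 WT and 8.56 to 8.63 in HMGN1 WT, while the HMGN1 and HMGN5 knock out arrays spread from 3.14 to 8.61 and from 2.60 to 8.72. With Y-linked signal as a covariate Col3a1 differed by -0.05 between HMGN5 WT and HMGN1 WT (adjusted p = 0.909). That value cannot be told from 0. The Y-linked Eif2s3y was 1.31 to 1.41 in HMGN1 WT and 6.40 to 6.59 in HMGN5 WT, so covariate and contrast can hardly be told apart in these groups. Summed intensity of 8 leukocyte markers, all above the filter level in every WT group, was 1065 to 1161 in HMGN3 WT, 506 to 936 in HMGN5 WT and 439 to 473 in HMGN1 WT, and its part in these differences was not tested.

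In MIN6 cells 3 of the 9 members passed the filter, Loxl3, Loxl4 and Col5a1, and the other 6 lay below 5.14 in all 3 groups. With HMGN3a 2 of 3 were called, where 34.1% of 13169 genes were. Loxl3 read 5.56, 5.64 and 5.58 with HMGN3a against 5.26, 5.45 and 5.44 with the vector (0.20 ± 0.07, adjusted p = 0.0439), and Loxl4, on probe set 1450134_at, 5.64, 5.55 and 5.48 against 4.87, 5.33 and 5.28 (0.40 ± 0.12, adjusted p = 0.0289). Neither pair of groups overlapped, and all of these levels lie just above or around the filter level. The other Loxl4 probe set, 1421153_at, differed by 0.06 ± 0.07 (adjusted p = 0.546). Neither was called without replicate 1 of the vector (0.14 for Loxl3 and 0.25 for Loxl4) or without replicate 1 or 2 of HMGN3a, and Loxl3 was not called without replicate 3 of either group (0.23 without that of the vector).

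Col5a1 read 6.19, 5.94 and 5.94 with HMGN3a against 5.94, 5.97 and 5.83 with the vector (0.11 ± 0.07, adjusted p = 0.264). With HMGN1 0 of 3 members were called by limma, where 1.16% of genes were, and 0 passed an unadjusted p below 0.05. Loxl3 read 5.32, 5.48 and 5.34 with HMGN1. Among the other lists HMGN3a had 8 folding genes lower and 1 higher of 17 tested, led by the prolyl 4-hydroxylase subunit P4ha2 (-1.38 ± 0.09) and the prolyl isomerase Fkbp14 (-0.91 ± 0.07), and Mrc2 fell by 1.96 ± 0.15. The share called over all genes with HMGN3a was 34.1%. With HMGN1 the call among the lists was Pcolce2, lower by 0.38 ± 0.08.

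The effect of a construct was compared between the 2 lines for members that passed the filter in both, by the difference of the differences. For HMGN1 (MIN6 cells minus SV40 MEFs) 1 of 3 members was called, where 23.5% of 12142 genes were, and that was Col5a1 at 0.51 ± 0.11 (adjusted p = 0.00103). The Col5a1 difference was read on probe set 1434479_at, which moved by 0.01 ± 0.08 in MIN6 cells and fell by 0.50 ± 0.08 in SV40 MEFs. For HMGN3a 0 of 3 were called by limma, where 21% of genes were. Loxl4 was read here on 1421153_at. The HMGN3a call of Loxl4 in MIN6 cells was on 1450134_at and was not compared between the lines. Loxl3 and Loxl4 had differences of -0.03 ± 0.11 and 0.03 ± 0.11 for HMGN1.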

How the data were processed

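Per the labels' protocols, total RNA was extracted with Trizol, cleaned on RNeasy columns with DNase and hybridised as biotin-labelled cRNA to Affymetrix Mouse Genome 430 2.0 arrays. The deposited values are linear intensities. RMA is the tool that the submitters' processing notes name, and its version and settings are not given in the sources used here. The intensity distributions are alike within a cell type and differ between cell types, which were therefore handled one by one. Each of the 51 value columns was used (0 left over), and no 2 arrays held the same values.

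Intensities were turned into log2 with no pseudocount and not normalized further. Of 45101 probe sets, 64 were array controls, 34945 had 1 gene symbol, 932 several and 9160 none. A probe set was kept if at least 1 group of the cell type averaged at or above the 40th percentile of all group averages there, and each gene was read from its brightest kept probe set. That gave 13669 genes for primary MEFs, 13461 for SV40 MEFs, 13169 for MIN6 and 12142 shared by both lines. Models were fitted per cell type by lmFit and eBayes of limma 3.58.1 under R 4.3.3 (files read with version 1.17.8 of data.table), with group means as the only terms. The 22 comparisons were 12 with a control, 5 direct contrasts, 3 between WT groups and 2 differences between lines. P-values are two-sided and adjusted by the Benjamini-Hochberg method over all genes tested. Intervals are 95% intervals of the fit. Where 1 group mean lay below the filter level, the difference is a bound against, per array, the higher of that level and the measured value. The procedure was tested on simulated data.

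The members and gene lists were chosen with earlier results of these data known. The text names all members, and per comparison with a control the counts of each list with up to 4 called genes of largest change whose groups do not overlap, of which a part is printed. For each member in SV40 MEFs it names the 2 genes of most similar level, and it names the Hmgn genes. Tnxb, Dcn, Plod2 with HMGN5 and the secondary probe sets were named after their values were seen. Python 3.11.15 with pandas 2.3.3 and matplotlib 3.10.9 made the figures. Alternatives were the filter, all probe sets in the fit, quantile normalization, a replicate block, the compared groups alone, each array left out, and the Y-linked and Actb covariates.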

Additional observations from a re-analysis of the deposited data

Results flagged for a closer look

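Both probe sets that the annotation gives to Loxl2 are also given to Gm21451 and stood outside the comparisons of the report, but they differed from the vector in SV40 MEFs. On 1431004_at the mean log2 levels were 8.50 with HMGN5, 9.02 with HMGN2 and 8.27 with HMGN1, against 7.16 with the vector, differences of 1.33 ± 0.13, 1.86 ± 0.13 and 1.11 ± 0.13. On 1452436_at they were 6.36, 6.82 and 6.08, against 5.05 with the vector, differences of 1.31 ± 0.21, 1.78 ± 0.21 and 1.03 ± 0.21. All 6 differences were called by limma over all probe sets. With the swaps the probe sets parted, since 1452436_at was called lower (-0.75 with N2swap and -0.90 with N3swap) and 1431004_at was not called (0.24 and 0.25). Neither was called in a knock out. How much of this signal is Loxl2, a lysyl oxidase of collagen IV, was not tested.

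The effect of HMGN1 on Col5a1 differed between the lines by 0.51 ± 0.11 (MIN6 cells minus SV40 MEFs, adjusted p = 0.00103 by limma), with a mean of 5.92 in MIN6 cells carrying HMGN1 against 5.91 with the vector there.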

How the results depend on the processing

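Counts of called members kept to within 1.5 times their size in the 3 knock out comparisons and the 7 construct comparisons and 5 direct contrasts of SV40 MEFs under every alternative run. The exceptions lay in the WT contrasts, in MIN6 cells and in 1 difference between lines. HMGN5 WT against HMGN3 WT had 3 calls, and 1 with no filter and 1 with all probe sets in the fit. That last setting changed the fit and the adjustment, and each gene was still read from its brightest kept probe set. Calls on the other probe sets of a gene, given above, did not enter its counts. HMGN3 WT against HMGN1 WT had 1, and 2 with the filter at the 60th percentile, 3 with quantile normalization, 2 with the Y-linked covariate and 2 with only the compared groups. HMGN5 WT against HMGN1 WT had 1, and 2 with the 60th percentile, 0 with the Y-linked covariate (where Col3a1 went to -0.050, not told from 0) and 2 with only the compared groups. HMGN3a in MIN6 cells had 2, and 1 each with no filter, all probe sets in the fit, quantile normalization or only the compared groups. The HMGN1 difference between lines had 1, and 3 with no filter. The 60th percentile left no member to test in MIN6 cells or across the lines. Leaving out each array gave 1 to 2, 0 to 2 and 0 to 3 calls in the WT contrasts of HMGN3 with HMGN1, HMGN5 with HMGN1 and HMGN5 with HMGN3. It gave 0 to 2 for HMGN3a in MIN6 cells, 4 to 5 for each swap against the vector, 6 to 8 for N2swap against HMGN1 and 6 to 7 for HMGN5 against HMGN2. Of 2274 values of single members under an alternative, 2202 were labelled the same, 54 lost a call and 17 gained one. The remaining 1 was that Col3a1 value, which lost its call and changed sign. The replicate numbers do not pair the samples, since arrays of the same number had median correlations of -0.008, 0.006 and 0.093 in the 3 cell types. The replicate block kept all 22 counts within 1.5 times their size. It did lower the count of HMGN5 WT against HMGN3 WT, where Loxl1 lost its call (limma adjusted p = 0.0587). The causes were not tested. Signal near the filter level limits Lox in SV40 MEFs and all members in MIN6 cells.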

Other observations

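Of the small leucine-rich proteoglycans, which coat collagen fibrils, Dcn, Prelp and Lum differed between the WT cultures of primary MEFs. These genes were chosen after their values were seen, and values of the others listed are not given. Over all genes 31.5% were called between HMGN3 WT and HMGN1 WT and 17.2% between HMGN5 WT and HMGN3 WT. Dcn was higher by 3.01 ± 0.16 in HMGN3 WT than in HMGN1 WT (limma adjusted p = 4.55e-09), Prelp by 2.71 ± 0.38 and Lum by 2.03 ± 0.26. The elastic-fibre gene Mfap4 was higher by 2.29 ± 0.23 in the same contrast. Between HMGN5 WT and HMGN3 WT they ran the other way, with Dcn at -2.01 ± 0.16, Prelp at -1.24 ± 0.38, Lum at -0.86 ± 0.26 and Mfap4 at -1.15 ± 0.23. Both contrasts share the HMGN3 WT arrays.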
